A study of Mus musculus with 20 samples.

Results

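The genes described are 9 interferon-inducible genes measured in the mouse heart: Iigp1, Irgm1, Irgm2, Igtp, Gbp2, Gbp3, Gbp7, Irf1 and Tap1. They are 9 of 49005 genes with counts, and all 9 were among the 18069 genes that passed the filter on low counts. They were chosen by their measured levels in these same libraries, in which 1 chow library lay far above the rest. Their levels and the differences between groups are therefore a description. How many of the 9 passed the test run across all genes is printed beside the share of all genes that passed, and nothing is read from these counts. Overlap of groups was examined for named genes only, so counts of it have no share of all genes beside them and are not read.

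The first 7 are GTPases of a pair of families that defend cells against microbes living inside them. Interferon gamma, and more weakly the type I interferons, induce both families through transcription factors, IRF1 among them, that bind DNA elements called GAS and ISRE. In the mouse, Iigp1 (also called Irga6) is an effector that coats the vacuole around parasites such as Toxoplasma, while Irgm1, Irgm2 and Igtp (also called Irgm3) keep such effectors switched off on the membranes of the host cell. The guanylate-binding proteins, here Gbp2, Gbp3 and Gbp7, gather on the same vacuoles, Irf1 is an interferon regulatory factor that switches on many of these genes, and Tap1 is 1 subunit of the transporter that carries peptides into the endoplasmic reticulum for loading on MHC class I.

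RNA from hearts of wild-type C57BL/6 mice aged 12 weeks was sequenced after polyA selection. The 4 groups were females on the high-fat diet (PA-F, 5 libraries), females on chow (Chow-F, 5), males on the high-fat diet (PA-M, 5) and males on chow (Chow-M, 5 samples, of which 4 could be compared). The labels do not spell out PA, and it is taken to mean the high-fat diet because that is the only diet the series names beside chow. The labels give no transgene and no drug, and they do not say how long the diet lasted or that each library came from its own animal, so any p-value below measures the spread between these libraries. Chow-M 4 was counted per gene rather than per piece of exon and was kept out of all comparisons.

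The 19 libraries compared held 57805110 to 85794067 counts. The unit of level is CPM, a gene's counts as a share of the effective library size after TMM scaling. Cardiomyocyte markers summed to between 85428 and 104853 CPM in every library, and Myh6, the alpha myosin heavy chain of the heart, stood at 40643 CPM in Chow-F 3 and 37740 to 43680 CPM in the other chow females. Of the 19 T and NK cell markers and the 7 adipocyte markers, 0 averaged 1 CPM or more. Adipocyte markers summed to 1.70 CPM in Chow-F 3 and 0.394 to 1.42 CPM in the other chow females. Adipoq of fat cells was at 0.113 CPM in Chow-F 3 and 0.0282 to 0.158 CPM in the others, while Cfd, a complement factor made by fat cells, was at 1.09 CPM and 0.183 to 0.554 CPM. PA-F 4 and PA-F 5 stood apart as libraries: Malat1, a nuclear RNA, had 117 CPM in PA-F 4 and 63.9 CPM in PA-F 5, and the other 17 libraries had 1132 to 1533 CPM. Chow-F 3 did not stand apart on that measure, with 1384 CPM of Malat1. In such bulk RNA, fewer cells of a type and less RNA per cell cannot be told apart.

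The stretches just upstream are printed for the 7 genes in which a core of an ISRE or GAS element was found in the RefSeq promoter window (GRCm38.p6, 250 bases before to 50 after the start that RefSeq gives). The ISRE core searched was GAAA, any 2 bases and GAAA, on either strand (TTTC, any 2 bases and TTTC on the other), and the GAS core was TTC, any 3 bases and GAA, which is its own reverse complement. Each line gives 120 bases that end just before the start, 5′ to 3′ on the gene's own strand, with matches in capitals.
Gbp7 (chr3:142530216-142530335, plus strand): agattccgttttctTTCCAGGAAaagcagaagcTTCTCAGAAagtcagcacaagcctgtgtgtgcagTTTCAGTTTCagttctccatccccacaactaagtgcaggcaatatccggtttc
Gbp3 (chr3:142559924-142560043, plus strand): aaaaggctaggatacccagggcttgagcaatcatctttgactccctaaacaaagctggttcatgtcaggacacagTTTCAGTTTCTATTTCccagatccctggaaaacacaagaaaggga
Gbp2 (chr3:142620543-142620662, plus strand): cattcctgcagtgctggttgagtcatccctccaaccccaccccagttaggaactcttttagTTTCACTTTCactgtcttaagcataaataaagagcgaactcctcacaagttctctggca
Irgm1 (chr11:48871421-48871540, minus strand): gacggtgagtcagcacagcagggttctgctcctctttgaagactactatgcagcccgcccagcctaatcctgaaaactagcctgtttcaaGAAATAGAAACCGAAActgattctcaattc
Irf1 (chr11:53769894-53770013, plus strand): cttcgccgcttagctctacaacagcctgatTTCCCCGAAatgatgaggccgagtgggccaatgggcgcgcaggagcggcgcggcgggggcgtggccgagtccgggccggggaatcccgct
Igtp (chr11:58199436-58199555, plus strand): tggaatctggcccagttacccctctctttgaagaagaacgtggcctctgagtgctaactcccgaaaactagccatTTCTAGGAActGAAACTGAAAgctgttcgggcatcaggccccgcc
Irgm2 (chr11:58214857-58214976, plus strand): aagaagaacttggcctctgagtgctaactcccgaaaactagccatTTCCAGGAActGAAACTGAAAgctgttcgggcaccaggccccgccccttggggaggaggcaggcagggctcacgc
Of the 9 genes, 8 had a promoter in the RefSeq table, and Iigp1 had none. An ISRE core was found in 6 of these 8, namely Gbp7, Gbp3, Gbp2, Irgm1, Igtp and Irgm2. It was found in 3.99% of all 27025 gene symbols with a promoter window, a symbol counting if any of its windows held a match. The GAS core was found in 4 of the 8, namely Gbp7, which has a pair of them, Irf1, Igtp and Irgm2, and in 9.55% of all those symbols. Both matches in Gbp3 overlap each other, as do those in Irgm1. The printed stretches of Igtp and Irgm2 are near copies: over 90 aligned bases, 87 were equal (96.7%). In both of them the GAS core ends 2 bases before the ISRE core begins. No match was found for Tap1 in its window, which says only that these letters are absent there.

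Iigp1 (ENSMUSG00000054072, chr18:60376029-60392627, plus strand, GRCm38) was the member with the widest range over libraries. It stood at 26.6, 34.2, 26.4, 4.38 and 2.01 CPM in high-fat females 1 to 5, against 27.6, 23.9, 117, 20.4 and 21.3 CPM in chow females 1 to 5. In males it stood at 18.98, 25.6, 22.7, 16.9 and 19.4 CPM on the high-fat diet, against 17.1, 15.5, 22.2 and 15.9 CPM on chow (libraries 1, 2, 3 and 5). Chow-F 3 was the highest library, 5.15 times the median of the other chow females, PA-F 4 and PA-F 5 were the lowest, and the other 16 libraries spanned 2.21-fold. In counts, the range ran from 132 in PA-F 5 to 8220 in Chow-F 3.

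Irgm1 (ENSMUSG00000046879, chr11:48861968-48871683, minus strand) was measured at 13.2, 15.3, 14.04, 12.5 and 10.8 CPM in high-fat females, against 12.4, 10.97, 35.2, 10.4 and 11.9 CPM in chow females. Among males it was at 9.51, 11.8, 10.6, 9.52 and 10.3 CPM on the high-fat diet, against 9.83, 9.75, 10.004 and 9.09 CPM on chow. Every chow female lay above every chow male, the groups of each diet comparison overlapped, and the 16 libraries other than Chow-F 3, PA-F 4 and PA-F 5 spanned only 1.68-fold.

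Irgm2 (ENSMUSG00000069874, chr11:58215008-58222782, plus strand) lies next to Igtp, and 17 exon pieces carried the names of both genes, of which 1 could not be given to either. High-fat females had 17.4, 22.7, 17.03, 17.9 and 13.7 CPM of Irgm2, against 15.7, 13.7, 93.3, 11.9 and 12.1 CPM in chow females. High-fat males had 12.3, 14.4, 13.9, 10.5 and 12.2 CPM, against 11.1, 10.7, 11.6 and 8.45 CPM in chow males. Chow-F 3 was 7.23 times the median of the other chow females, and without it the chow females lay between 11.9 and 15.7 CPM.

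Igtp (ENSMUSG00000078853, chr11:58199556-58207591, plus strand) showed the largest departure of Chow-F 3 among the 9, at 10.7 times the median of the other chow females. Its levels were 11.9, 20.7, 14.7, 14.99 and 13.7 CPM in high-fat females, against 12.9, 10.8, 110.1, 9.22 and 9.75 CPM in chow females. The levels in males were 10.1, 12.03, 11.8, 7.40 and 9.56 CPM on the high-fat diet, against 9.84, 8.44, 9.97 and 6.37 CPM on chow. Reads of Igtp and Irgm2 could be split wrongly where exon pieces carried the names of both genes, and their values moved in the same libraries. PA-F 4 and PA-F 5 lay within the range of the other females for both.

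Gbp2 (ENSMUSG00000028270, chr3:142620602-142638008, plus strand), Gbp3 (ENSMUSG00000028268, chr3:142560026-142573209, plus strand) and Gbp7 (ENSMUSG00000040253, chr3:142530342-142550149, plus strand) lie in 1 cluster on chromosome 3. Gbp2 stood at 20.4, 34.2, 26.2, 26.9 and 24.3 CPM in high-fat females, against 21.2, 21.7, 49.1, 17.8 and 20.9 CPM in chow females. For males the values were 18.2, 19.7, 24.8, 18.97 and 21.4 CPM on the high-fat diet, against 17.4, 16.7, 17.8 and 16.6 CPM on chow. All 5 high-fat males lay above all 4 chow males, the only member for which the groups of a diet comparison did not overlap.

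Gbp3 was found at 20.6, 29.8, 19.4, 9.85 and 6.41 CPM in high-fat females, against 14.2, 14.9, 53.2, 13.7 and 14.51 CPM in chow females. On the male side there were 12.6, 16.9, 18.9, 13.8 and 16.02 CPM on the high-fat diet, against 12.99, 11.1, 11.3 and 12.1 CPM on chow. The high-fat females split, with PA-F 1 to 3 above every chow female but Chow-F 3, and PA-F 4 and PA-F 5 below every chow female.

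Gbp7 repeated that split more steeply, with 21.4, 25.3, 18.8, 1.16 and 0.896 CPM in high-fat females, against 14.7, 16.4, 40.7, 13.99 and 12.7 CPM in chow females. Male hearts held 15.8, 17.9, 22.1, 15.4 and 16.3 CPM on the high-fat diet, against 14.99, 13.2, 16.6 and 12.2 CPM on chow. PA-F 4 and PA-F 5 averaged 1.03 CPM, against 21.8 CPM in PA-F 1 to 3, a ratio of 0.0470, and 59 counts in PA-F 5 was the lowest count of any member in any library. Part of the gene overlaps Gm43802, and 15 exon pieces carried the names of both, of which 1 could not be given to either. The 14 pieces summed for Gbp7 lie in its exons and not in those of Gm43802.

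Irf1 (ENSMUSG00000018899, chr11:53770014-53778374, plus strand) was the steadiest of the 9 among high-fat females, with 32.97, 35.8, 35.1, 34.04 and 35.1 CPM, against 32.4, 31.8, 55.4, 27.3 and 28.5 CPM in chow females. High-fat male hearts ranged more widely, at 23.8, 30.1, 42.1, 26.7 and 32.6 CPM, against 27.6, 30.1, 24.6 and 22.6 CPM in chow males. Chow-F 3 was again highest, though only 1.84 times the median of the other chow females, and PA-F 4 and PA-F 5 lay among the other high-fat females.

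Tap1 (ENSMUSG00000037321, chr17:34187553-34197225, plus strand) stood at 16.5, 28.03, 24.6, 18.4 and 15.9 CPM in high-fat females, against 18.1, 16.5, 62.2, 15.1 and 12.3 CPM in chow females. In the male groups it reached 13.3, 14.54, 17.8, 10.98 and 12.7 CPM on the high-fat diet, against 13.5, 14.9, 13.8 and 11.3 CPM on chow. Chow-F 3 was 3.94 times the median of the other chow females, and the groups of each comparison overlapped.

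**Figure D1:**
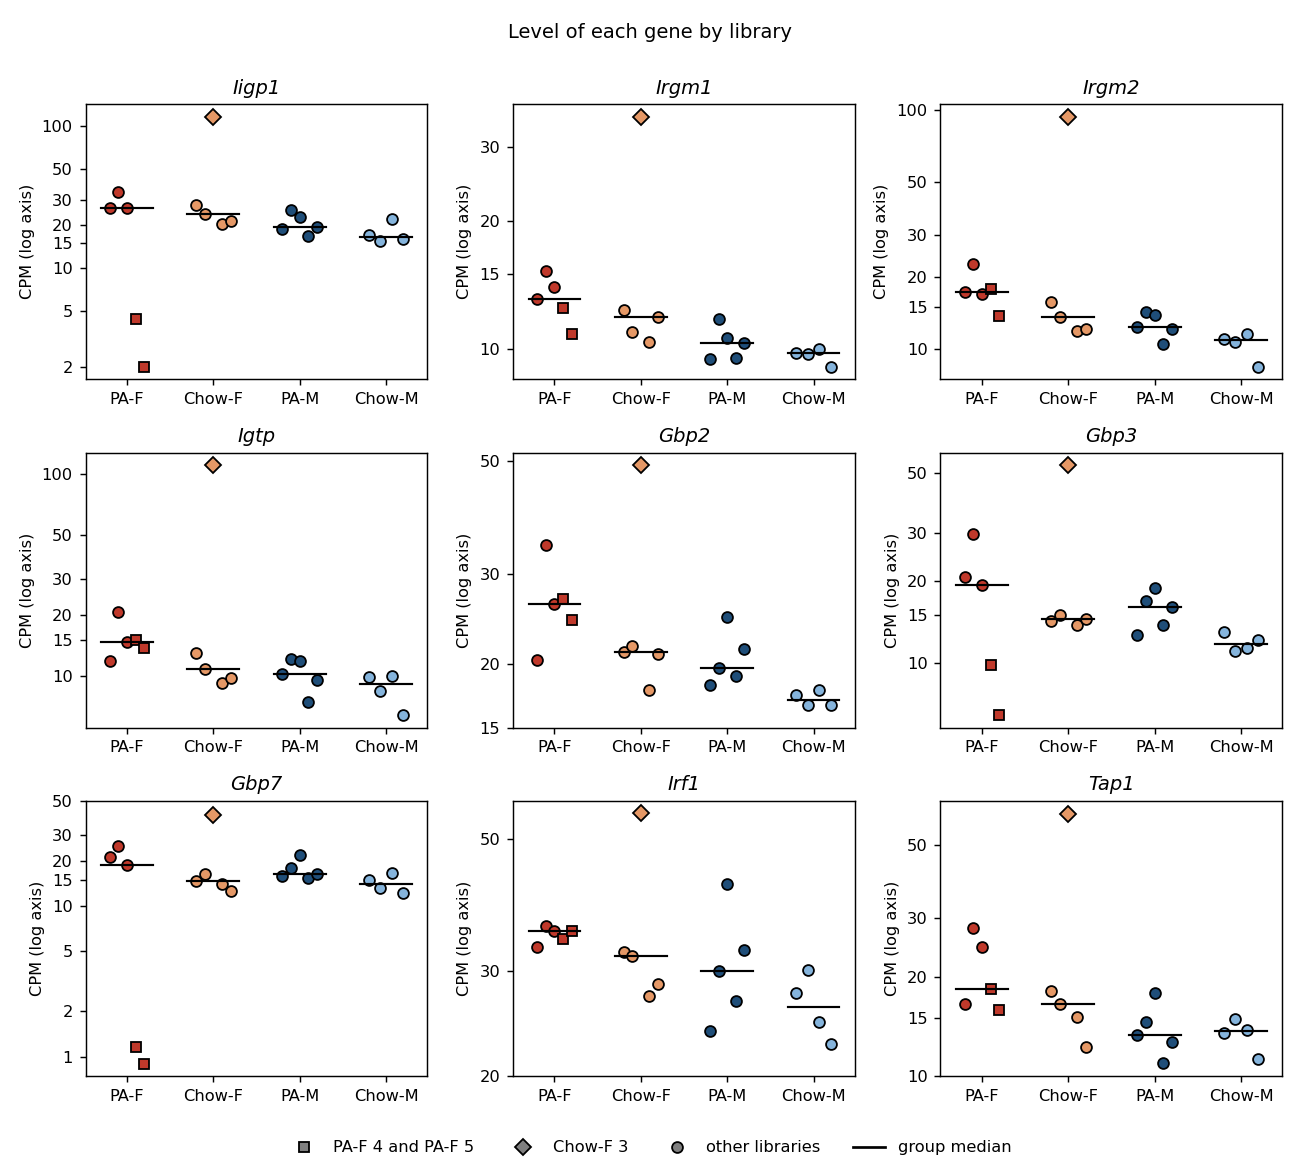
Level of each of the 9 genes in each of the 19 libraries, in CPM on a log axis, by group, with a line at the group median. Chow-F 3 (diamond) is the highest library in all 9 panels, and PA-F 4 and PA-F 5 (squares) are the lowest for Iigp1, Gbp3 and Gbp7.

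The plot of levels by library shows an order of groups that single libraries hide in the means. High-fat females had the highest median for all 9 genes and chow males the lowest for 8. Tap1 was the exception, with medians of 13.3 CPM in high-fat males and 13.7 CPM in chow males. Chow females came next after high-fat females for 7 genes, and high-fat males did for Gbp3 and Gbp7. For Gbp2 the group medians were 26.2 CPM in high-fat females, 21.2 CPM in chow females, 19.7 CPM in high-fat males and 17.01 CPM in chow males. For Irf1 they were 35.1, 31.8, 30.1 and 26.1 CPM in the same groups. Groups next to each other in a gene's order of medians overlapped, except that high-fat males lay above chow males for Gbp2 and chow females above chow males for Gbp3. Per kilobase of exon, Gbp2 averaged 9.08 CPM over all 19 libraries, Igtp 8.89, Iigp1 and Irf1 8.06 each, Gbp3 5.19 and Irgm2 5.08. Tap1 averaged 3.37, Gbp7 3.29 and Irgm1 2.15, with SDs between libraries of 0.99 (Irgm1) to 12.3 (Igtp). These averages include Chow-F 3, with 110.1 CPM of Igtp, and a read that spans several pieces counts in each. Of the 5810 bases of Irgm1, 3242 lie in 1 piece with at most 5 counts per library, which lowers its value. The order of the genes is therefore not read.

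Chow-F 3 was the highest of 19 libraries for each of the 9 genes. The next highest was PA-F 2 for 8 of them and PA-M 3 for Irf1. Chow-F 3 exceeded that next library 5.32-fold for Igtp, 4.12-fold for Irgm2, 3.40-fold for Iigp1, 2.30-fold for Irgm1 and 2.22-fold for Tap1. For the guanylate-binding proteins and Irf1 the gap was smaller, from 1.318-fold for Irf1 to 1.78-fold for Gbp3. Of the exon pieces that averaged at least 0.2 CPM, every one was above the median of the other chow females in Chow-F 3. These were 2 of 2 in Iigp1, 4 of 4 in Irgm1, 2 of 2 in Irgm2, 5 of 5 in Igtp, 13 of 13 in Gbp2, 14 of 14 in Gbp3, 13 of 13 in Gbp7, 16 of 16 in Irf1 and 21 of 21 in Tap1. The genes were chosen for this library, the limit includes it, and a read counts in each piece it spans, so these counts are no test. Pieces under the limit, among them 1 with 3242 of the 5810 bases of Irgm1, were not counted. In Igtp the pieces ranged from 9.69 to 11.9 times that median, and in Irf1 from 1.47 to 2.25 times.

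Other interferon-responsive genes were also high in that library. Of 104 further genes on 4 lists of interferon genes that averaged at least 1 CPM, 53 had their highest level in Chow-F 3, 18 in PA-F 2 and 8 in PA-F 3, whereas of all 13512 genes at that level 461 (3.41%) peaked in Chow-F 3. By list, the highest level was in Chow-F 3 for 11 of 14 other GTPases, 17 of 20 genes of MHC class I presentation, 17 of 47 interferon-stimulated genes and 8 of 23 genes of interferon signalling. Gm4841, among the 11 GTPases, averaged at least 1 CPM only through Chow-F 3 (13.1 CPM there and at most 1.17 CPM in any other library). The median ratio of Chow-F 3 to the other chow females was 2.76 for the GTPases, 1.92 for class I presentation, 1.62 for the interferon-stimulated genes and 1.13 for signalling, and 3.70 for the 9 genes. Irf9, a factor of type I interferon signalling, stood at 45.7 CPM in Chow-F 3 and 19.9 to 21.7 CPM in the other chow females. Nlrc5, which drives class I genes, stood at 31.0 CPM there and 6.57 to 10.3 CPM in the others. Ifng, which encodes interferon gamma itself, had 5 counts in Chow-F 3 (0.0709 CPM) and at most 0.0141 CPM in the other chow females, too few to compare.

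Markers of other cell types differed from list to list in Chow-F 3. All 15 macrophage and monocyte markers lay above the median of the other chow females, with a median ratio of 1.30, and their summed level was 321 CPM, against 236 to 282 CPM. Ly6c2, a monocyte marker that averaged under 1 CPM, had a ratio of 3.01, and the other 14 stayed at or under 1.76. Adgre1, which encodes the macrophage protein F4/80, was at 17.2 CPM, against 13.4 to 16.8 CPM. Median ratios were 1.07 for 13 endothelial markers, 1.02 for 10 cardiomyocyte markers and 0.98 for 8 fibroblast markers, and Cdh5, the endothelial cadherin, was at 160 CPM, against 139 to 164 CPM. T and NK cell markers had a median ratio of 2.04, above those given for the class I, interferon-stimulated and signalling lists, but all of these markers averaged under 1 CPM, with 0 to 64 counts per gene in Chow-F 3. Of these 19 markers, 15 lay above the median of the other chow females, 10 were over 2 times it, and 5 had their highest level of all libraries in Chow-F 3. They summed to 4.49 CPM, the highest of 19 libraries, against 1.96 to 3.56 CPM in the other chow females. By group that sum ran from 2.60 to 4.18 CPM in high-fat females, 1.96 to 4.49 CPM in chow females, 1.40 to 1.99 CPM in high-fat males and 1.73 to 2.05 CPM in chow males, so its higher values were in females, as for most of the 9 genes. The macrophage sum ran from 260 to 296, 236 to 321, 237 to 292 and 283 to 336 CPM in the same groups. Of the defining genes of T cells, Cd3e had a level of 0 in Chow-F 3, Cd3d was at 0.142 CPM (0 to 0.142 CPM in the other chow females) and Cd3g at 0.170 CPM (0 to 0.310 CPM). Cd8a of cytotoxic T cells was at 0.213 CPM, against 0.0259 to 0.107 CPM, and Ncr1 of NK cells at 0.227 CPM, against 0.0400 to 0.127 CPM. The granule protease gene Gzmb was at 0.284 CPM, against 0.0129 to 0.133 CPM, a ratio of 12.9. The part of these cells in the levels of the 9 genes was not tested.

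**Figure D2:**
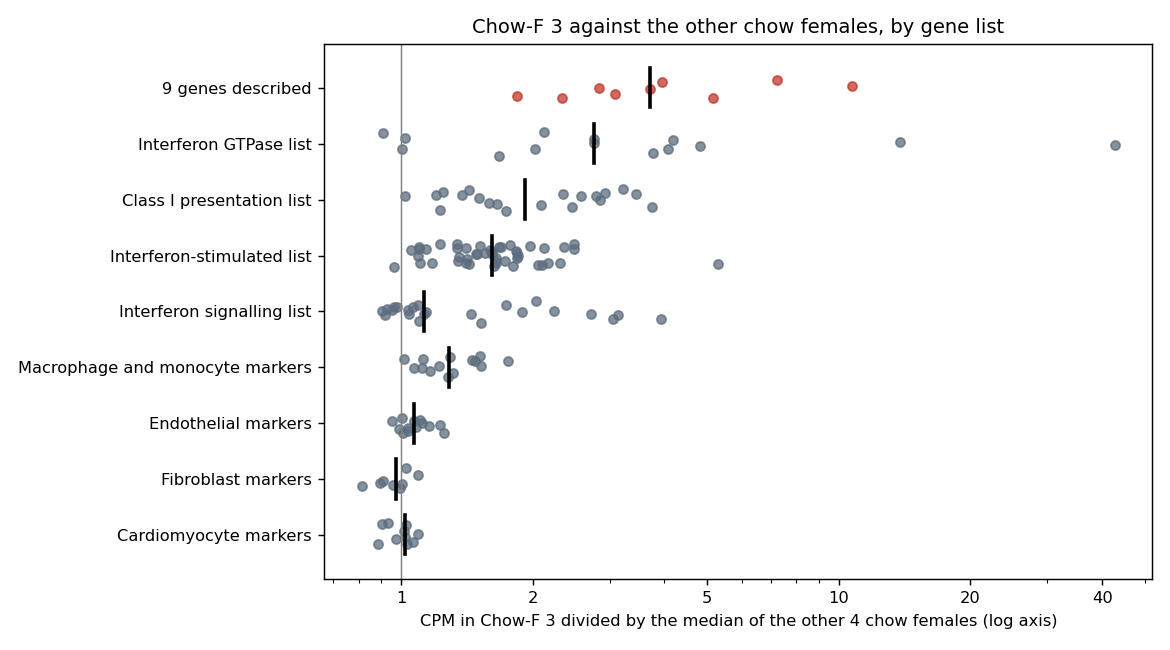
Level in Chow-F 3 divided by the median of the other 4 chow females (log axis), 1 point per gene averaging 1 CPM or more, by list, with a bar at the list median. The 9 genes have a median of 3.70 and reach 10.7 for Igtp, while endothelial, fibroblast and cardiomyocyte markers stay near 1.

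The plot of ratios by list places the 9 genes beside the lists they belong with. Only 12 of the 13512 genes were over 2 times as high in Chow-F 3 as in any other library, and they are named here because they are few, after their values were seen. They were 5 of the 9 (Igtp, Irgm2, Iigp1, Irgm1 and Tap1), 6 genes of the lists and BC023105. From the lists came Gm4841 (11.2-fold over the next library), F830016B08Rik (6.27-fold), Gbp6 (2.50-fold), Cd274, which encodes PD-L1 (2.31-fold), Tgtp2 (2.23-fold) and H2-K1, a class I heavy chain (2.05-fold). BC023105, at 16.4-fold, was on no list. A single library with such genes was not rare by itself, since Chow-F 4 had 18 of them, but 0 of those were on the interferon lists. The limit of 1 CPM on the 13512 genes is a mean that includes Chow-F 3. Without that library Gm4841 and BC023105 would average under 1 CPM, so they entered only through the library in which they are high.

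PA-F 4 and PA-F 5 divided the 9 genes in another way. Against the mean of PA-F 1 to 3, their mean was 0.0470 for Gbp7, 0.110 for Iigp1 and 0.350 for Gbp3. The ratio lay between 0.744 and 0.998 for the other 6 genes: 0.744 for Tap1, 0.825 for Irgm1, 0.832 for Irgm2, 0.911 for Igtp, 0.952 for Gbp2 and 0.998 for Irf1. GC content of the longest transcript moved with this ratio. Iigp1 (39.3% GC) and Gbp7 (41.7%) have the lowest GC of the 9, and Tap1 (55.8%) and Irf1 (52.8%) the highest. Over the 9 genes Pearson's r between GC and the log2 ratio was 0.72, and over 13474 genes it was 0.516, both across genes, which are not independent replicates. In the tenth of genes with the lowest GC (up to 41.3%) the median log2 ratio was -1.16, and in the tenth with the highest (57.9% or more) it was 0.17. Gbp3, at 45.9% GC, had a lower ratio than Irgm1 (45.6%) and Irgm2 (46.4%) of like GC. All 13 measured exon pieces of Gbp7 and all 14 of Gbp3 were lower in PA-F 4 and 5.

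**Figure D3:**
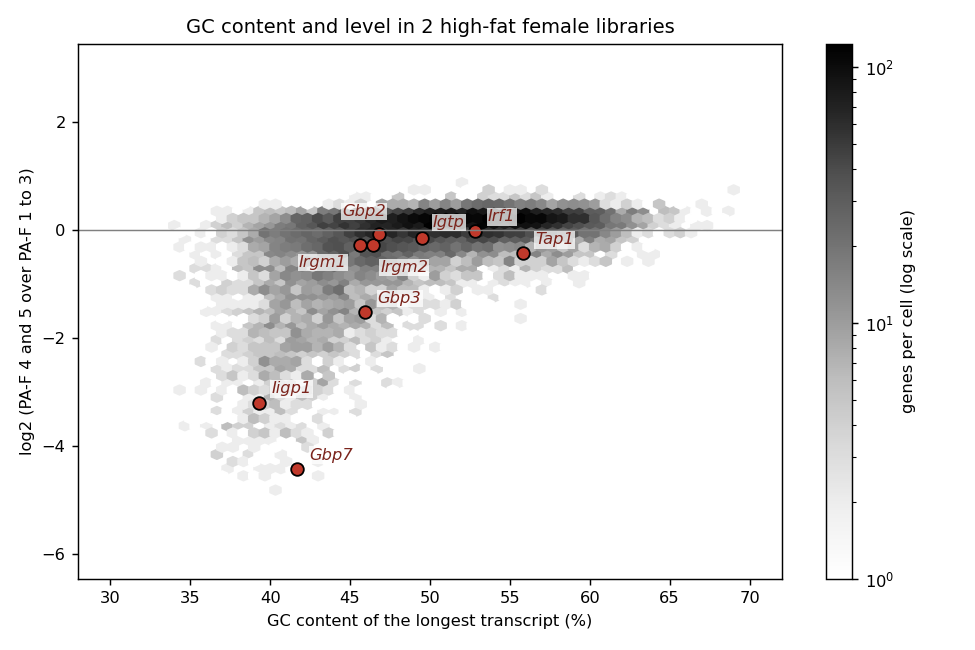
Log2 ratio of the mean of PA-F 4 and 5 to the mean of PA-F 1 to 3 against the GC content (%) of the longest transcript, with 13474 genes as shaded cells (log scale) and the 9 genes as labelled points. Gbp7 and Iigp1 lie at the low end of both axes, and Irf1 lies at a ratio of 0.998.

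In the plot against GC content Gbp7 lies near the lower edge of all genes of like GC, and values that include high-fat females are given with and without these libraries below. What part GC content or the quality of those libraries had in the levels was not tested.

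The 9 genes varied together over libraries. Over 19 libraries the 36 pairs had Pearson's r of their log2 levels from 0.08 to 0.99, with a median of 0.79. The lowest was between Gbp2 and Gbp7 and the highest between Irgm2 and Igtp. Without PA-F 4 and 5 the 36 values ran from 0.81 to 0.99, with a median of 0.92. Chow-F 3, which is high for every member, enters all of these values.

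Genes whose pattern was like the mean of the 9 were ranked by Pearson's r over 13503 other genes that averaged 1 CPM or more. That mean, in centred log2 levels, was 1.93 in Chow-F 3 and at most 0.68 in any other library. Each r therefore leans on the library for which the 9 were chosen, and r without Chow-F 3 was not computed. Among the 10 with the highest r over 19 libraries were BC023105 (r = 0.96), Trim21 (0.93), Gbp5 (0.92), Gbp4 (0.91), Nlrc5 (0.90), Cd274 (0.89), Gm4841 (0.87), Uba7 (0.87) and Apol10b (0.86). Over the 17 libraries without PA-F 4 and 5 the 10 with the highest r included B2m (0.97), H2-K1 (0.97), H2-D1 (0.97), H2-T22 (0.96), Psmb8 (0.96), BC023105 (0.96), F830016B08Rik (0.95), Psmb9 (0.95) and H2-T23 (0.95). B2m is the light chain of class I molecules, the H2 genes encode heavy chains, and Psmb8 and Psmb9 are subunits of the immunoproteasome that cuts the peptides Tap1 carries. B2m stood at 470 CPM in Chow-F 3, against 155 to 176 CPM in the other chow females, and Psmb8 at 35.2 CPM, against 11.7 to 13.05 CPM.

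**Figure D4:**
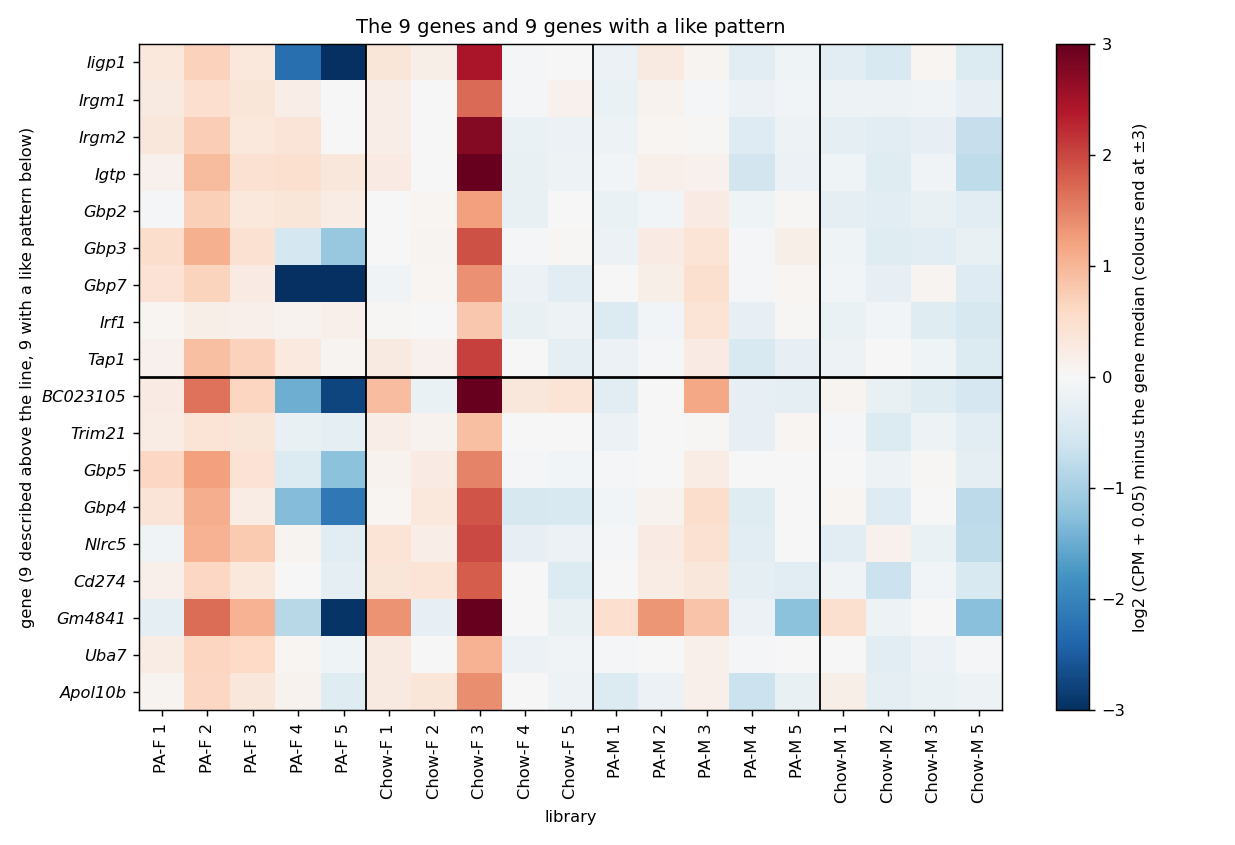
Log2 of CPM plus 0.05 minus the gene's median over the 19 libraries, for the 9 genes (above the line) and 9 of the 10 whose pattern over 19 libraries was most alike, with libraries in columns by group. Chow-F 3 is the darkest red in all 9 genes, PA-F 2 is pale to mid red in all 9, and PA-F 4 and 5 are dark blue for Iigp1 and Gbp7 but not for Irgm2, Igtp, Gbp2 or Irf1.

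The heat map sets 3 genes from the list of other interferon GTPases, Gbp4, Gbp5 and Gm4841, beside the 9. Gbp5 stood at 14.53, 22.1, 12.8, 7.02 and 3.98 CPM in high-fat females, against 10.1, 11.2, 26.4, 9.03 and 8.80 CPM in chow females, so it too was lowest in PA-F 4 and PA-F 5 and highest in Chow-F 3.

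Whether the diet changed these genes in the female heart is asked by setting high-fat females against chow females. Over all libraries the log2 difference was below 0 for 8 of the 9 genes, with a median of -0.36, beside -0.02 for all genes tested. Igtp averaged 15.2 ± 3.31 CPM in high-fat females and 30.6 ± 44.5 CPM in chow females (SD, n = 5 each), a log2 difference of -1.01 ± 0.55 (SE). Iigp1 averaged 18.7 ± 14.6 CPM in high-fat females and 42.0 ± 41.8 CPM in chow females, a difference of -1.16 ± 0.60. Gbp2 and Irf1 differed by 0.01 ± 0.21 and -0.02 ± 0.17. The SD of Igtp and Iigp1 in chow females was about as large as the mean or larger, and all 9 pairs of groups overlapped. By edgeR's quasi-likelihood test 0 of the 9 were called, beside 2.53% of all 18069 genes (1.67% higher and 0.863% lower). An unadjusted p under 0.05 in edgeR was found for 0 of the 9, beside 18.8% of all genes, and DESeq2 called 0, beside 5.5%.

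The direction of that difference depended on which libraries were kept. Without Chow-F 3 the log2 difference was above 0 for 7 of the 9, with a median of 0.26. Without PA-F 4 and 5 it was above 0 for 3, with a median of -0.11. Without all 3 libraries it was above 0 for 9 of 9, with a median of 0.50, and ran from 0.20 ± 0.14 for Irf1 to 0.69 ± 0.13 for Gbp3. In that reading Gbp7 stood at 18.8 to 25.3 CPM in PA-F 1 to 3, against 12.7 to 16.4 CPM in the 4 other chow females. Irgm2 stood at 17.03 to 22.7 CPM in PA-F 1 to 3, against 11.9 to 15.7 CPM in those chow females. Chow-F 3 is left out there because of the very levels compared, so these values describe the remaining libraries and support no direction. Of the 9, edgeR's test called 4 in that fit, Gbp3, Gbp7, Irgm1 and Irgm2, all higher in high-fat females, beside 4.55% of all genes, and it called 0 of them in each fit that left out 1 library or PA-F 4 and 5.

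**Figure D5:**
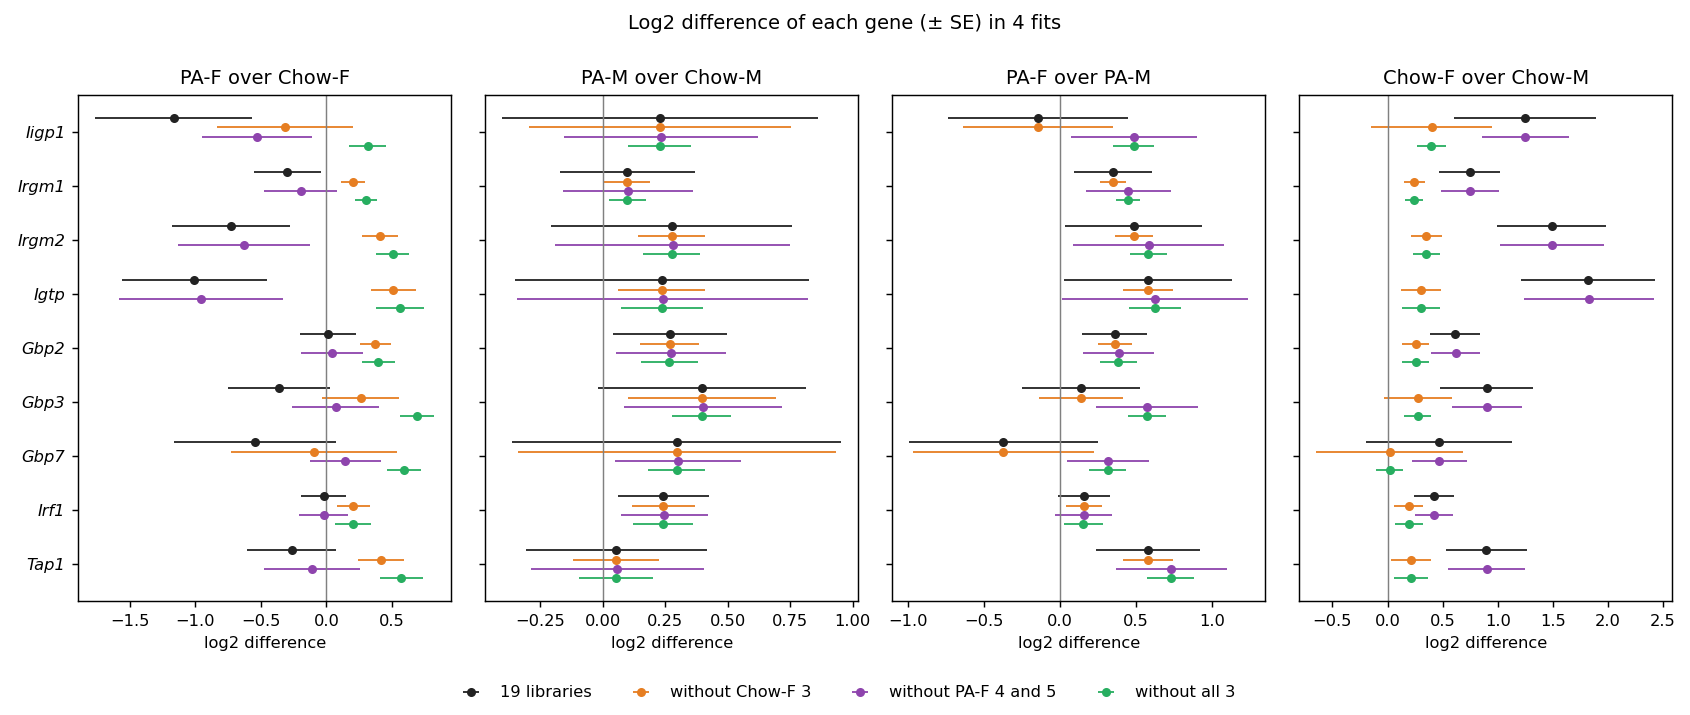
Log2 difference (± SE) of each gene in 4 comparisons, from fits to all 19 libraries, without Chow-F 3, without PA-F 4 and 5 and without all 3. For PA-F over Chow-F, Igtp moves between -1.01 with all libraries and 0.56 without all 3, while PA-M over Chow-M, which holds none of these libraries, keeps its differences and only its errors change.

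In males, which hold none of the libraries that stood apart, all 9 log2 differences between high-fat and chow were above 0, with a median of 0.24, beside 0.002 for all genes. They ran from 0.05 ± 0.36 for Tap1 to 0.40 ± 0.42 for Gbp3, with SEs of 0.18 to 0.66 that rest on a spread shared with the female groups. Gbp2 averaged 20.6 ± 2.62 CPM in high-fat males and 17.1 ± 0.57 CPM in chow males (n = 5 and 4, with SD), a difference of 0.27 ± 0.23. Gbp3 averaged 15.6 ± 2.49 CPM in high-fat males and 11.9 ± 0.87 CPM in chow males. Of the 9, edgeR's test called 0, beside 0.764% of all genes (0.398% higher and 0.365% lower). Its unadjusted p was under 0.05 for 0 of them, beside 8.52% of all genes, and DESeq2 called 0, beside 1.42%. The groups did not overlap for 1 of the 9, Gbp2, and the share of all genes without overlap was not counted.

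The test of whether diet acted differently by sex called 0 of 18069 genes (0%) in edgeR, in which 1839 had an unadjusted p under 0.05, and 58 in DESeq2. Members had log2 differences of differences, high-fat over chow in females minus the same in males, from -1.39 ± 0.87 for Iigp1 to -0.25 ± 0.31 for Gbp2, with a median of -0.76. Without Chow-F 3 and PA-F 4 and 5 the median was 0.23, and 8 of 9 were above 0. None of the 9 had an unadjusted p under 0.05 with all libraries, and DESeq2 called 0 of them.

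Females were higher than males for all 9 genes on chow, by a median log2 difference of 0.89, beside 0.01 for all genes. Igtp differed by 1.82 ± 0.61 and Irgm2 by 1.49 ± 0.49, and Irf1 by 0.42 ± 0.18. Groups did not overlap for 4 of the 9: Irgm1, Irgm2, Gbp2 and Gbp3. The share of all genes without overlap was not counted, so nothing is read from this count. Without Chow-F 3 the median was 0.25, with Igtp at 0.30 ± 0.18 and Gbp3 at 0.27 ± 0.31, and all 9 stayed above 0. EdgeR's test called 0 of the 9, and DESeq2 called 0, beside 5.01% of all genes. An unadjusted p under 0.05 in edgeR was found for 7, as for 16.6% of all genes. By edgeR 3.22% of all genes were called (1.73% higher and 1.49% lower in females). Without PA-F 4 and 5, which are in neither group, Iigp1 and Irgm2 were called, both higher in females, beside 10.5% of all genes. Without Chow-F 3 edgeR called 0 of the 9 (2.15% of all genes), and without all 3 libraries 0 (8.34%).

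On the high-fat diet 7 of the 9 were higher in females than in males, with a median of 0.35, beside 0.01 for all genes. Tap1 averaged 20.7 ± 5.35 CPM in high-fat females and 13.9 ± 2.57 CPM in high-fat males (SD, n = 5 each), a difference of 0.58 ± 0.34. Irgm1 averaged 13.2 ± 1.66 CPM in high-fat females and 10.3 ± 0.93 CPM in high-fat males, a difference of 0.35 ± 0.26. Iigp1 (-0.15 ± 0.59) and Gbp7 (-0.37 ± 0.62) were the genes below 0, and without PA-F 4 and 5 they stood at 0.49 ± 0.41 and 0.32 ± 0.27. All 9 pairs of groups overlapped with all libraries. Of the 9, 0 had an unadjusted p under 0.05 in edgeR, beside 29.7% of all genes, and DESeq2 called 0, beside 13.5%. EdgeR's test called 0 of the 9 after adjustment, while 10.3% of all genes were called (6.40% higher and 3.92% lower in females). Without Chow-F 3, which is in neither group but adds to the spread that all groups share, 4 were called, Igtp, Irgm1, Irgm2 and Tap1, beside 9.58% of all genes. Without all 3 libraries 7 were called, all but Gbp7 and Irf1, beside 10.7% of all genes. The called genes were higher in females in both fits. Without Chow-F 3 the difference of Irgm2 stayed at 0.49 while its SE fell from 0.45 to 0.13. The 9 were chosen because Chow-F 3 is high in them, so the calls made without it follow from that choice and support no direction.

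Other interferon genes, on 4 lists that do not hold the 9, were tested in the same fit. The lists were of further interferon GTPases, interferon signalling, MHC class I presentation and interferon-stimulated genes, and 118 of their 123 genes were tested. High-fat females against chow females gave 1 called gene, Isg20, an RNA exonuclease, which averaged 4.10 CPM in high-fat females and 2.89 CPM in chow females (log2 difference 0.50 ± 0.12, edgeR adjusted p = 0.0338). Its groups overlapped, and no list gene was called when Chow-F 1, 2, 4 or 5 or PA-F 2 or 3 was left out. High-fat males against chow males gave 1, Trim25, a ubiquitin ligase of the RIG-I pathway, at 30.2 CPM in high-fat males and 25.9 CPM in chow males (0.22 ± 0.05, edgeR adjusted p = 0.0411), with all high-fat males above all chow males. No list gene was called in males when Chow-F 1, any of the 4 chow males or PA-M 1, 2, 3 or 5 was left out. For the difference of diet by sex 0 were called by edgeR and 0 by DESeq2, and 6 had an unadjusted p under 0.05 in edgeR, beside 10.2% of all genes. Log2 differences were above 0 for 65 of 118 in females and 98 of 118 in males, with medians of 0.02 and 0.17.

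Between the sexes the share of list genes called with all libraries was near or below that of all genes. Log2 differences were above 0 for 93 of 118 on chow and 80 of 118 on the high-fat diet, with medians of 0.24 and 0.18. On chow 41 had an unadjusted p under 0.05 in edgeR, beside 16.6% of all genes, and 15 did without Chow-F 3. On the high-fat diet 36 did with all libraries, beside 29.7% of all genes. On chow 1 of 118 was called (0.847%, beside 3.22% of all genes), Ifi205, an interferon-inducible gene of the AIM2-like group, at 2.48 CPM in females and 9.73 CPM in males (-1.97 ± 0.31, edgeR adjusted p = 0.00129). On the high-fat diet 13 of 118 were called (11%, beside 10.3% of all genes), 11 higher and 2 lower in females. Ifi205 was again lower, at 1.81 CPM in females and 10.2 CPM in males (-2.50 ± 0.31, adjusted p = 9.91e-05), and Ifngr1, a chain of the interferon gamma receptor, was lower by 0.18 (-0.18 ± 0.05, adjusted p = 0.0401). Ifitm1 and Ifitm3, membrane proteins that block virus entry, were higher by 0.95 ± 0.15 (adjusted p = 0.000955) and 0.50 ± 0.10 (0.00538), and Ifi27l2a by 1.08 ± 0.19 (0.00183). Tyk2, a kinase of the type I receptor, was higher by 0.26 ± 0.06 (0.0160) and Tapbp, which tethers class I molecules to the TAP transporter, by 0.36 ± 0.09 (0.0188). The other 6 called were Ccl5, Ifit3, Lgals3bp, Lgals9, Oasl2 and Rtp4, all higher in females. Irf9 (0.52 ± 0.19, edgeR adjusted p = 0.0814) did not pass, although all high-fat females lay above all high-fat males for Irf9. In the same contrast 2 of 15 macrophage markers, Cd68 and Fcgr1, were called higher, named after their values were seen, as were 6 of 8 fibroblast markers. Of 12 tested T and NK cell markers and 8 B cell markers, 0 were called. Log2 differences were nevertheless above 0 for 12 of 12 T and NK cell markers (median 1.21), all of which averaged under 1 CPM. They were above 0 for 12 of 15 macrophage (median 0.23), 7 of 8 fibroblast (0.42) and 6 of 8 B cell markers (0.27).

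The same 3 libraries moved these counts. For high-fat against chow females, 18 of 118 list genes were called without Chow-F 3 (1.95% of all genes called), 11 without PA-F 4 and 5 (4.95%) and 52 without all 3 (4.55%), all of them higher. For females against males on the high-fat diet the counts were 30 without Chow-F 3 (9.58%), 21 without PA-F 4 and 5 (10.4%) and 53 without all 3 (10.7%). Irf7, the factor that amplifies type I interferon, reached 1.03 ± 0.14 in high-fat over chow females without all 3 libraries (edgeR adjusted p = 0.000540), and Oas2, a sensor enzyme for double-stranded RNA, 0.97 ± 0.14 (0.000910), both named after their values were seen. Because Chow-F 3 was set aside for its own interferon genes, the larger counts without it cannot be read as independent of that choice. With all libraries, endothelial markers (4 of 13 called higher, Cdh5 among them) and fibroblast markers (3 of 8 higher) differed between high-fat and chow females too, and 2 of 10 cardiomyocyte markers were called lower, and the part of such shifts in the 9 genes was not tested.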

How the data were processed

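The 20 files were analysed as deposited. In 19 of them the deposited values are whole-number counts for 425461 pieces of exons, a read that spans several pieces being counted in each; 1 (Chow-M 4) holds counts per gene, with a total of 31686627, and was left out of comparisons. Salmon 1.5.1, the build GRCm39 and DESeq2 1.32.0 are named in the submitters' processing notes. The counter, its use of strand and its treatment of reads that match several places are not given in the sources used here, so reads of antisense partners and of near-identical GTPase copies cannot be told apart. Counts were summed per gene ID. Of 33309 pieces with joined IDs, 27829 were given to 1 gene and 5480 (1.35% to 1.49% of counts) were not used. Names and coordinates are those of GENCODE vM21 (GRCm38), in which 44858 of 49056 genes (91.4%) and 8 of the 9 members had the start and end of the files.

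Genes were tested with the quasi-likelihood F-test of edgeR 4.0.16 (R 4.3.3) with TMM scaling and edgeR's filter, 1 model of 4 groups with 15 residual degrees of freedom, and Benjamini-Hochberg adjustment over 18069 genes; a gene was called at an adjusted p under 0.05. The members, the lists and the tests were chosen with earlier results of these data known. Named genes are the 9 in every library, per contrast up to 4 called genes of each interferon list with the smallest p, Ifng and Irf9, the 10 genes with the most similar pattern over 19 and over 17 libraries, and fixed markers and signs of library quality; a few items that this rule names are not reported here. A library's floor of 3 counts covers counting error only. The numbers that groups share were not taken as pairs, because 1 of 27 same-numbered pairs had a correlation over 0.1. Alternatives were median-ratio size factors, DESeq2 1.42.0, no filter, a stricter filter (1 CPM in 5 libraries), a replicate block, only the groups compared, the largest exon piece, each library left out, and PA-F 4 and 5 left out. Leaving out Chow-F 3 with PA-F 4 and 5 was chosen after seeing the data.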

Additional observations from a re-analysis of the deposited data

Results flagged for a closer look

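In the chow females 1 library of 5, Chow-F 3, lay further from the rest than Dixon's critical value for each of the 9 genes. The genes were chosen because that library was high in them, so this restates the choice and is no test of it. Its level was 117 CPM for Iigp1 (20.4 to 27.6 CPM in the other chow females), 35.2 CPM for Irgm1 (10.4 to 12.4 CPM), 93.3 CPM for Irgm2 (11.9 to 15.7 CPM) and 110.1 CPM for Igtp (9.22 to 12.9 CPM). It was 49.1 CPM for Gbp2 (17.8 to 21.7 CPM), 53.2 CPM for Gbp3 (13.7 to 14.9 CPM), 40.7 CPM for Gbp7 (12.7 to 16.4 CPM), 55.4 CPM for Irf1 (27.3 to 32.4 CPM) and 62.2 CPM for Tap1 (12.3 to 18.1 CPM). Of 36 sets of libraries examined, 9 genes in 4 groups, these 9 were past the value. The rate of about 1 in 20 that chance gives does not apply to genes chosen in this way. The 9 genes move together, so this is 1 library seen through 9 genes and not 9 separate events. A departure of 2 libraries together, as in PA-F 4 and PA-F 5, cannot be found in this way.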

How the results depend on the processing

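The counts of called genes on the 4 interferon lists were 1 for diet in females, 0 for diet by sex, 1 for diet in males, 1 for sex on chow and 13 for sex on the high-fat diet. For diet in females the count was 5 with DESeq2, 2 with the filter of 1 CPM in 5 libraries, 3 with the replicate block, and 0 with no filter, with only the groups compared and with the largest exon piece. For diet in males it was 6 with only the groups compared, and 0 with no filter, the replicate block or the largest exon piece. For sex on chow it was 7 with DESeq2 and 2 with only the groups compared or the replicate block. Replicate numbers correlated at -0.06 to 0.14 over 27 pairs, 6 of 19 libraries were most like one of their own number, and the block gave 15 calls for sex on the high-fat diet. Without PA-F 4 and 5 the counts were 11 for diet in females, 13 for sex on chow and 21 for sex on the high-fat diet, and without Chow-F 3 as well they were 52, 4 and 53, with 2 for diet in males. With 1 library left out at a time they ran from 0 to 18 for diet in females, 1 to 2 for sex on chow, 0 to 1 for diet in males and 9 to 30 for sex on the high-fat diet, the 18 and the 30 being without Chow-F 3. DESeq2 and the replicate block used the same libraries and genes with another test or model, and the other settings changed which libraries, genes or exon pieces were used. The cause of the shifts was not tested. The other 99 recomputed counts lay within 1.5 times, and the count for diet by sex was 0 in all of them.

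Of 1251 recomputed differences of the 9 genes, 1217 moved by less than the spread between libraries and 34 by more, 15 without Chow-F 3 and 19 without all 3 libraries. The sign turned in 44 of the 1251. That spread was taken within groups over all 19 libraries, so Chow-F 3 and PA-F 4 and 5 widened the limit set for their own removal. Without PA-F 4 and 5, Gbp7 in high-fat over chow females went from -0.54 to 0.15 and stayed within it. The 1217 therefore do not measure stability against these libraries. The lowest count of any member was 59, for Gbp7 in PA-F 5, and a read that spans several pieces counts in each. The part of depth in the levels was not tested.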
